A study of Mus musculus with 6 samples.

Results

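The genes for the proteins of the mitochondrial ribosome were followed in mouse embryonic fibroblasts (MEFs) with and without the E3 ubiquitin ligase RNF40. They were taken by symbol, as every gene whose name is Mrpl (large subunit) or Mrps (small subunit) followed by a number and at most 1 letter. This gave 76 of the 29955 genes in the deposited table, 47 of the large and 29 of the small subunit, and all 76 were among the 16378 genes with enough reads to be tested. RNF40 forms with RNF20 the ligase that puts a single ubiquitin on histone H2B. Libraries for mRNA sequencing were made from total RNA, 3 of Rnf40+/+ and 3 of Rnf40-/- MEFs, all at passage 3. The study's methods describe the MEFs as grown from embryos that carried a tamoxifen-inducible Cre (CreERT2) at the ubiquitously active Rosa26 locus and loxP sites around exons 3 and 4 of both Rnf40 alleles. The Rnf40-/- cells were kept for 5 days in 250 nM 4-hydroxytamoxifen (4-OHT) and for 3 more days without it. That description names no other genotype for the Rnf40+/+ MEFs, which would make them floxed cells without deletion, but it is not tied to these libraries. Whether the Rnf40+/+ cells received 4-OHT is not stated, so the deletion and the treatment cannot be told apart. The sources used here also do not state whether libraries came from separate cultures or embryos, and the p-values therefore measure only the spread between these libraries.

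Mitochondria keep their own ribosome, which translates the few messenger RNAs of the mitochondrial DNA into core subunits of the respiratory chain and of ATP synthase. Its ribosomal RNAs are made in the organelle, whereas all its proteins are encoded in the nucleus, made in the cytosol and imported. Many of them descend from bacterial ribosomal proteins, others are found only in mitochondria, and defects of either kind cause inherited deficiencies of oxidative phosphorylation.

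The deposited value of a gene is its read number divided by 1 size factor per library, and is called a normalized count below. The Rnf40+/+ libraries held from 17053436 to 26344170 and the Rnf40-/- libraries from 18115481 to 20495627 reads on genes. A gene with 3 reads, the limit of detection used here, has a normalized count between 2.40 and 3.58, and the lowest mean of any mitoribosomal gene was 159, so that depth did not limit detection. Rnf40 itself had normalized counts of 1278, 1195 and 1096 in Rnf40+/+ and 439, 519 and 487 in Rnf40-/- MEFs, which is 40.5% of the Rnf40+/+ mean. All 10 fibroblast markers examined (Col1a1, Vim, Fn1 and others) were detected in each library, and 8 of them were lower in Rnf40-/- MEFs. Their summed normalized count was from 669465 to 741504 in Rnf40+/+ and from 400462 to 403413 in Rnf40-/- MEFs. The 15 proliferation markers tested were all lower, with a median log2 fold change of -2.51. Their summed normalized count ran from 8801 to 10548 in Rnf40+/+ and from 3272 to 3447 in Rnf40-/- MEFs. Macrophage markers were also present. Their summed normalized count was 6726, 7179 and 12759 in the Rnf40+/+ and 4326, 4054 and 4598 in the Rnf40-/- libraries, and 6 of 12 were lower and 2 higher. Of 9 epithelial and endothelial markers 6 were tested and 3 were higher, the endothelial genes Cdh5, Pecam1 and Kdr. The summed normalized counts of all 9 markers were 241, 73 and 109 in Rnf40+/+ and 231, 298 and 203 in Rnf40-/- MEFs. The part of these differences in the values below was not tested, and in bulk RNA fewer cells of a type and less RNA per cell cannot be told apart.

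The summed level of the mitoribosomal genes hardly differed between genotypes, while single members moved in both directions by small amounts. The 76 genes summed to normalized counts of 48955 ± 3086 (SD, n = 3) in Rnf40+/+ and 48137 ± 2254 in Rnf40-/- MEFs, or 98.3% of the Rnf40+/+ mean. The large subunit stood at 97.0% (31139 ± 2026 against 30194 ± 1409) and the small subunit at 100.7% (17816 ± 1108 against 17943 ± 869). These differences are smaller than the SD between replicates of either genotype. At an adjusted p under 0.05 (limma, Benjamini-Hochberg over all genes tested), 12 members were higher (15.8%) and 18 lower (23.7%) in Rnf40-/- MEFs. Over all 16378 genes 23.3% were higher and 24.1% lower, 47.4% in either direction, against 39.5% (30) of the members. Leaving out 1 library left 6 higher members without Rnf40-/- replicate 3 (19.4% of all genes were higher in that fit). There were 7 without Rnf40+/+ replicate 1, Rnf40-/- replicate 1 or Rnf40-/- replicate 2 (22%, 18.2% and 18.5% of all genes), and 12 lower members without Rnf40-/- replicate 2 (20.1% of all genes). The large subunit held 8 higher and 13 lower genes, and the small subunit 4 higher and 5 lower genes. The median log2 fold change was -0.06 for the large and 0.03 for the small subunit, beside -0.0035 over all genes tested.

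The changes of the members lay in a narrow range. Their log2 fold changes lay between -0.71 (Mrps16) and 0.52 (Mrpl47), with an SD of 0.25 over the members and 0.73 over all genes tested. Some lists of like function had SDs near this, 0.19 for the cytosolic ribosomal proteins, 0.26 for the mitochondrial aminoacyl-tRNA synthetases and 0.28 for the mitoribosome assembly factors. The range is therefore not particular to the mitoribosome. Others were wider, with 0.32 for the mitochondrial translation factors, 0.35 for regulators of mitochondrial DNA expression and biogenesis and 0.38 for mitoribosomal proteins outside the symbol pattern. The import channel subunits had 0.39 and the oxidative phosphorylation subunits 0.43. Only 3 members (3.95%), Mrps16, Mrpl53 and Mrpl47, changed by more than 0.5 in either direction, whereas 33.6% of all genes did, and none of the members but 11.8% of all genes passed 1. The 95% interval of the fold change stayed within 1 of 0 for each of the 76 members, and within 0.5 of 0 for 53 of them (69.7%, against 34.7% of all genes). The standard errors of the members were from 0.07 to 0.19, with a median of 0.10, and the median over all genes was 0.12. The study called a gene changed when its mean was above 15, its p under 0.05 and its absolute log2 fold change above 1. Applied to the limma p-values and fold changes used here, not to those of the study, these limits called 9.95% of all genes and 0 members. Of the members, 30 passed the adjusted p alone and 34 an unadjusted p under 0.05. In 32 members (42.1%) the 3 libraries of one genotype all lay above those of the other, against 56.5% of all genes tested, 12 with Rnf40-/- above and 20 with Rnf40-/- below. Of the called genes, Mrps6 (higher) and Mrpl50 (lower) were the ones whose genotypes overlapped.

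**Figure D1:**
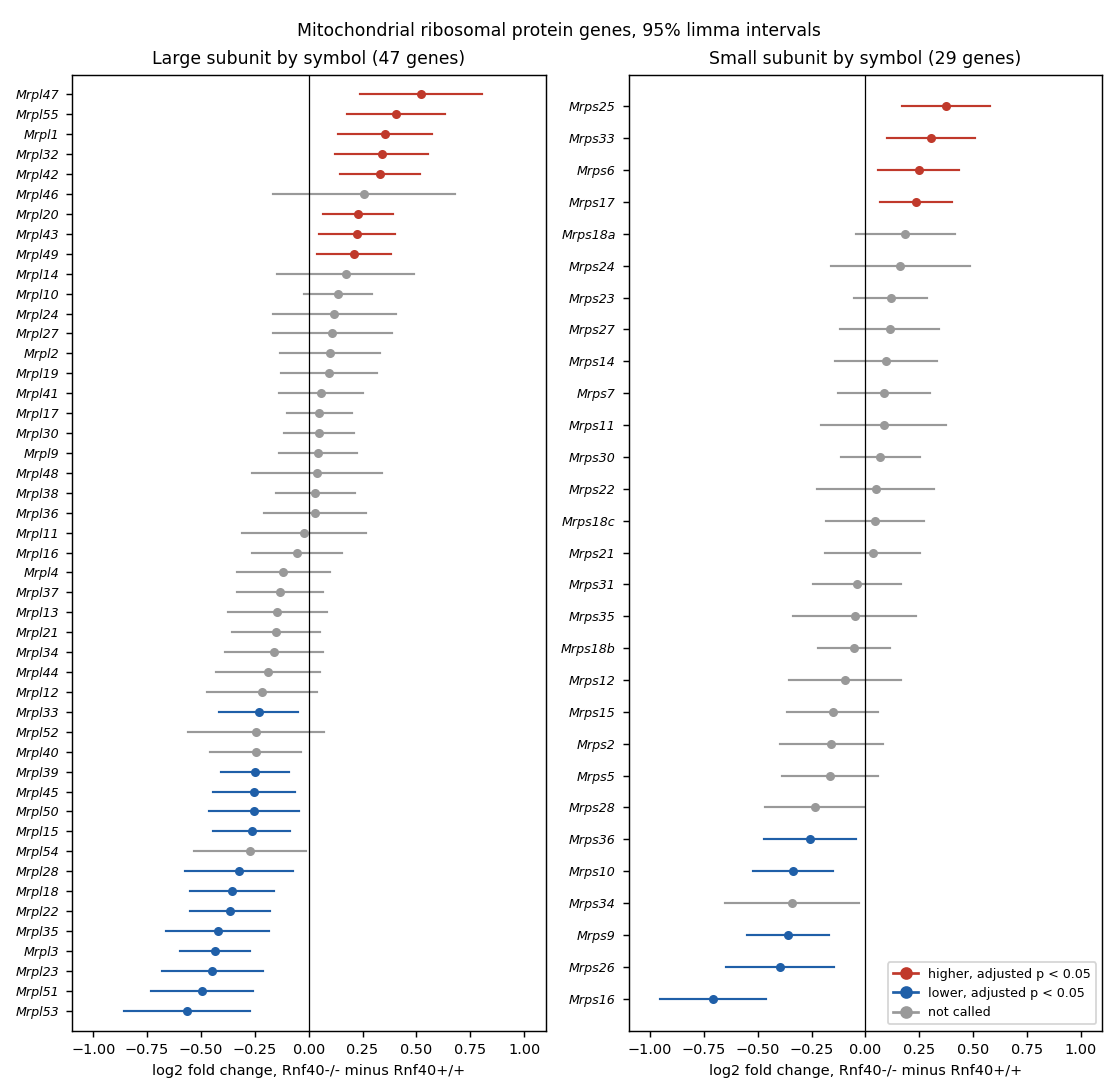
Log2 fold change (Rnf40-/- minus Rnf40+/+, x axis) of each of the 47 large subunit genes (left) and 29 small subunit genes (right), with the 95% interval from limma. Red marks the 12 genes called higher, blue the 18 called lower and grey the rest, and every interval stays between -1 and 1.

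Among the lower genes of the large subunit, the 6 largest falls belonged to Mrpl53, Mrpl51, Mrpl23, Mrpl3, Mrpl35 and Mrpl22. Mrpl53 (chr6:83059089-83059933 of mm9, plus strand), which codes for a protein found only in mitochondrial ribosomes, had normalized counts of 238, 238 and 265 in Rnf40+/+ and 155, 151 and 195 in Rnf40-/- MEFs. All Rnf40-/- libraries lay below all Rnf40+/+ libraries, and the gene fell by 0.57 on the log2 scale (SE 0.13, adjusted p = 0.00429). Mrpl51 (chr6:125141819-125145601, plus strand), likewise without a bacterial counterpart, had 503, 544 and 668 in Rnf40+/+ and 416, 389 and 402 in Rnf40-/- MEFs. It fell by 0.49 on the log2 scale (SE 0.11, adjusted p = 0.00271), and again the genotypes did not overlap, although the Rnf40+/+ libraries were spread more widely (572 ± 86.3) than the Rnf40-/- libraries (403 ± 13.4). Mrpl3 is the homologue of the bacterial protein that reaches into the peptidyl transferase centre, where peptide bonds are made. Its normalized counts were 926, 981 and 943 in Rnf40+/+ and 663, 721 and 721 in Rnf40-/- MEFs. The spread within each genotype was small, and Mrpl3 fell by 0.44 on the log2 scale (SE 0.07, adjusted p = 0.000486). Mrpl23 and Mrpl22 code for homologues of proteins in or at the exit of the tunnel through which the nascent chain leaves. Mrpl23 had 533, 506 and 631 in Rnf40+/+ and 447, 374 and 400.3 in Rnf40-/- MEFs and fell by 0.45 on the log2 scale (SE 0.11, adjusted p = 0.00465). Mrpl22 had 577, 562 and 563 in Rnf40+/+ and 411, 461 and 448 in Rnf40-/- MEFs, with closely placed Rnf40+/+ libraries and no overlap, and fell by 0.37 on the log2 scale (SE 0.09, adjusted p = 0.00379). Mrpl35, a homologue of a small bacterial protein, had 420.4, 487 and 463 in Rnf40+/+ and 301, 341 and 382 in Rnf40-/- MEFs and fell by 0.42 on the log2 scale (SE 0.11, adjusted p = 0.0074). The other 7 lower genes of the large subunit were Mrpl15, Mrpl18, Mrpl28, Mrpl33, Mrpl39, Mrpl45 and Mrpl50, with fold changes from -0.36 (Mrpl18) to -0.23 (Mrpl33) on the log2 scale.

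The higher genes of the large subunit were led by Mrpl47, Mrpl55, Mrpl1, Mrpl32, Mrpl42 and Mrpl20. Mrpl47 (ENSMUSG00000037531, chr3:32624319-32636069, minus strand, 7 exons) codes for a homologue of a bacterial protein at the tunnel exit. Its normalized counts were 161, 145 and 174 in Rnf40+/+ and 220.2, 255 and 215 in Rnf40-/- MEFs, every Rnf40-/- library being above every Rnf40+/+ library. The mean went from 160.0 ± 14.7 to 230.1 ± 21.4, or 144% of Rnf40+/+, and the gene rose by 0.52 on the log2 scale (SE 0.13, adjusted p = 0.00586). Exons of Mrpl47 share bases with genes on the opposite strand, 447 with Actl6a and 158 with Ndufb5. The library kit keeps the strand, but whether the counting used it is not stated, so its value is uncertain by that share. Mrpl55 had 227, 246 and 239 in Rnf40+/+ and 326, 294 and 324 in Rnf40-/- MEFs, a tight grouping in both genotypes without overlap, and rose by 0.41 on the log2 scale (SE 0.10, adjusted p = 0.00697). Mrpl1, whose bacterial homologue forms the mobile stalk beside the exit site of transfer RNA, had 356, 367 and 328 in Rnf40+/+ and 406, 483 and 459 in Rnf40-/- MEFs and rose by 0.36 on the log2 scale (SE 0.10, adjusted p = 0.0117). Mrpl32 codes for a protein that the m-AAA protease of the inner membrane must cleave before it can enter the ribosome. It had 771, 648 and 591 in Rnf40+/+ and 871, 800.5 and 858 in Rnf40-/- MEFs, with Rnf40+/+ replicate 1 close to the Rnf40-/- libraries, and rose by 0.34 on the log2 scale (SE 0.10, adjusted p = 0.0138). Mrpl42, specific to mitochondria, had 720.1, 625 and 709 in Rnf40+/+ and 819.8, 838 and 922 in Rnf40-/- MEFs and rose by 0.33 on the log2 scale (SE 0.09, adjusted p = 0.00724). Mrpl20, a homologue of a bacterial assembly protein, had 1289.8, 1422 and 1485 in Rnf40+/+ and 1617, 1567 and 1726 in Rnf40-/- MEFs and rose by 0.23 on the log2 scale (SE 0.07, adjusted p = 0.0245). The remaining higher genes, Mrpl43 and Mrpl49, changed by 0.22 and 0.21 on the log2 scale.

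In the small subunit Mrps16 had the largest change of any mitoribosomal gene. Mrps16 (ENSMUSG00000049960, chr14:21210453-21212777, minus strand, 3 exons) codes for the homologue of bacterial protein S16, which helps the small subunit to assemble, and mutations in the human gene cause a fatal deficiency of the respiratory chain. Its normalized counts were 471, 499.7 and 576 in Rnf40+/+ and 306, 285 and 354 in Rnf40-/- MEFs. The highest Rnf40-/- library was well below the lowest Rnf40+/+ library, and the mean went from 515 ± 54.3 to 315 ± 35.5, 61.1% of Rnf40+/+. The gene fell by 0.71 on the log2 scale (SE 0.11, adjusted p = 0.000292), with a 95% interval of -0.96 to -0.46. Mrps26, found only in mitochondria, had 561, 558 and 749 in Rnf40+/+ and 496, 449 and 462 in Rnf40-/- MEFs and fell by 0.40 on the log2 scale (SE 0.12, adjusted p = 0.0136). Mrps9, the homologue of a protein of the head of the bacterial small subunit, had 708, 790.3 and 773 in Rnf40+/+ and 558, 646 and 567 in Rnf40-/- MEFs and fell by 0.36 on the log2 scale (SE 0.09, adjusted p = 0.00495). Mrps10, also of the head, had 679.5, 744 and 688 in Rnf40+/+ and 530.2, 537 and 604 in Rnf40-/- MEFs and fell by 0.34 on the log2 scale (SE 0.09, adjusted p = 0.00638). In none of these did the genotypes overlap. Mrps36 had 447, 445 and 438 in Rnf40+/+ and 344, 414 and 356 in Rnf40-/- MEFs and fell by 0.26 on the log2 scale (SE 0.10, adjusted p = 0.047). Despite its name its product is a subunit of the 2-oxoglutarate dehydrogenase complex, and without it the small subunit held 4 lower genes. The call of Mrps36 held in 8 of 19 other settings of the fit and in 1 of the 6 fits that leave out a library, and was lost under TMM scaling, edgeR and DESeq2 (adjusted p = 0.0506, 0.0549 and 0.0948).

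The 4 higher genes of the small subunit were Mrps25, Mrps33, Mrps6 and Mrps17. Mrps25 (ENSMUSG00000014551, chr6:92119519-92134027, minus strand, 4 exons), specific to mitochondria, had 731, 752 and 827 in Rnf40+/+ and 876, 1043 and 1083 in Rnf40-/- MEFs. Every Rnf40-/- library was above every Rnf40+/+ library, the means were 769.7 ± 50.3 and 1000.5 ± 109.8, and the gene rose by 0.37 on the log2 scale (SE 0.09, adjusted p = 0.00562). Its exons share 3533 bases with Nr2c2 on the opposite strand, with the same uncertainty as for Mrpl47. Mrps33, specific to mitochondria, had 622, 644 and 712 in Rnf40+/+ and 774, 759.8 and 919 in Rnf40-/- MEFs and rose by 0.31 on the log2 scale (SE 0.09, adjusted p = 0.0178). Mrps17, a homologue of a bacterial protein that binds ribosomal RNA early in assembly, had 712, 682 and 740.3 in Rnf40+/+ and 791, 860.0 and 862 in Rnf40-/- MEFs and rose by 0.24 on the log2 scale (SE 0.08, adjusted p = 0.0242). Neither of them overlapped between genotypes. Mrps6, the member with the highest mean of all, had 1635, 2062 and 1703 in Rnf40+/+ and 2144, 2031 and 2205 in Rnf40-/- MEFs. Rnf40+/+ replicate 2 lay within the range of the Rnf40-/- libraries, and the gene rose by 0.25 on the log2 scale (SE 0.09, adjusted p = 0.0337). This call held in 1 of the 6 fits that leave out a library, the one without Rnf40+/+ replicate 2. Mrps6 shares 159 exon bases with Slc5a3 on the same strand, where the sequenced reads cannot be assigned to one gene. In all, 12 members shared exon bases with another protein-coding gene on the opposite strand and 2 on the same strand.

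**Figure D2:**
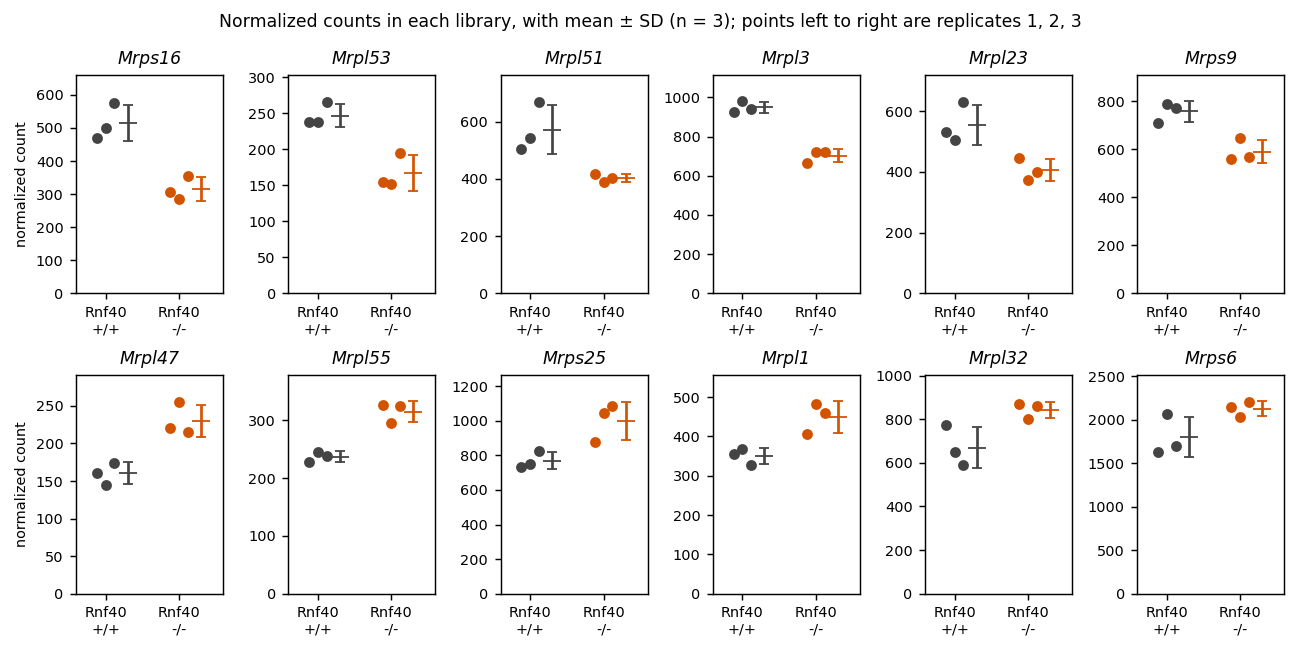
Normalized counts (y axis, from 0) of 12 mitoribosomal genes in each of the 3 Rnf40+/+ (grey) and 3 Rnf40-/- (orange) libraries, with the mean and SD beside the points. The 6 genes of the upper row are lower and those of the lower row higher in Rnf40-/- MEFs, and the genotypes overlap in Mrps6.

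Some small subunit symbols are misleading as to place. Mrps18a, Mrps18b and Mrps18c are paralogues, of which Mrps18c occupies the site of the bacterial protein, while the product of Mrps18a sits in the large subunit, as does that of Mrps30. None of these 4 genes passed the test. Mrps18a had 480.1, 553 and 573 in Rnf40+/+ and 595, 544 and 690.2 in Rnf40-/- MEFs (log2 fold change 0.19, adjusted p = 0.174, 95% interval -0.05 to 0.42). Mrps18b had 863, 897 and 938 in Rnf40+/+ and 809, 883 and 913 in Rnf40-/- MEFs (95% interval -0.22 to 0.12). Mrps18c had 401, 443 and 494 in Rnf40+/+ and 485, 417 and 474 in Rnf40-/- MEFs (95% interval -0.18 to 0.27). For Mrps30 the values were 479, 530.3 and 495 in Rnf40+/+ and 542, 517 and 518 in Rnf40-/- MEFs (95% interval -0.11 to 0.25). The genotypes overlapped in these 4 genes. With proteins placed by structure, the large subunit had 8 higher and 13 lower of 49 genes and the small subunit 4 higher and 4 lower of 26, with medians of -0.02 and -0.0020. For counts by origin the subunits were again taken by symbol. Of the large subunit genes, 5 of 30 with a bacterial homologue were higher and 8 lower (median 0.0030), and 3 of 17 specific to mitochondria were higher and 5 lower (median -0.19). In the small subunit these were 2 higher and 3 lower of 16 (median -0.03) and 2 higher and 2 lower of 13 (median 0.05). These 13 genes include Mrps18a, Mrps30 and Mrps36, and Mrps36 is among the lower ones.

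Steady-state RNA levels of the mitoribosomal genes were far from equal. Per 1000 nucleotides of the longest coding transcript, the highest mean normalized counts in Rnf40+/+ MEFs were those of Mrpl33 (2270.4), Mrpl52 (2163), Mrps6 (2127) and Mrps21 (1907). The lowest were those of Mrpl47 (47.6), Mrpl19 (79.4), Mrpl48 (80.1) and Mrpl1 (98.5), so that the levels spanned 47.7-fold. The median level per 1000 nucleotides was 519 in the large and 406 in the small subunit. These levels rest on the annotated transcript, and the 4 lowest genes have long ones (3364, 5000, 4285 and 3556 nucleotides). Without regard to length the Rnf40+/+ means spanned 11.6-fold, from 155 (Mrps11) to 1799.8 (Mrps6). The Mrps11 row, the lowest as deposited, had 158, 138 and 168 in Rnf40+/+ and 163, 162 and 165 in Rnf40-/- MEFs, with a log2 fold change of 0.08 (adjusted p = 0.632). A further row of the same letters in capitals holds about as many reads, and with it added Mrps11 is not the lowest.

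The calls of these genes, whose transcripts are short, changed when a trend on transcript length was removed. The median coding transcript of the members was 1164 nucleotides long, against 3008 for the tested genes with an annotated length. Rnf40+/+ replicate 3 and Rnf40-/- replicate 3 had higher values for short genes than the other libraries of their genotype. In Rnf40+/+ replicate 3 the median difference from the other Rnf40+/+ libraries was 0.21 (log2) over 804 genes of at most 1000 nucleotides and -0.07 over 4315 genes of more than 4000. The members showed the same, with a median of 0.15 in Rnf40+/+ replicate 3 and 0.09 in Rnf40-/- replicate 3. Rnf40+/+ replicate 3 was the highest Rnf40+/+ library for 43 of the 76 members and Rnf40-/- replicate 3 the highest of its genotype for 45. When the trend of each library on length was removed, which was chosen after seeing the data, 18 members were higher (23.7%, against 26.4% of the 13670 genes tested) and 9 lower (11.8%, against 25.4%). All 12 higher genes kept their call. Of the 18 lower genes 9 kept it, among them Mrps16, Mrpl53, Mrpl51, Mrpl23, Mrpl3, Mrpl35 and Mrps9, and 9 did not, among them Mrpl22, Mrps10 and Mrps36. The genes that gained a call were all higher, namely Mrpl2, Mrpl10, Mrpl14, Mrps18a, Mrps23 and Mrps24. The median became 0.03 for the large and 0.13 for the small subunit. The trend was taken against the mean of all 6 libraries, so any length trend that differs between the genotypes was removed with it. Without Rnf40+/+ replicate 3 there were 14 higher and 16 lower members (22.8% and 23.3% of all genes tested), and without replicate 3 of either genotype 10 and 15 (20.5% and 22.1%). In the latter fit the medians were -0.06 for the large and 0.03 for the small subunit. Which difference between libraries the removed trend reflects was not tested.

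Of the 30 called members, 11 (36.7%) were called under each of 19 other settings of the fit, against 71.5% of all called genes that were tested in each setting. The 7 lower ones were Mrps16, Mrpl53, Mrpl51, Mrpl23, Mrpl3, Mrpl35 and Mrps9, and the 4 higher ones were Mrpl47, Mrpl55, Mrps25 and Mrpl42. No called member changed sign in any of these settings. With each library left out in turn, 14 members (46.7%) were called in all 6 fits, 10 lower and 4 higher, against 72.8% of all called genes. Of the other called members, Mrpl1, Mrps26, Mrpl15 and Mrpl39 were called in 5 of these fits, and Mrpl32 and Mrpl45 in 4. Mrpl20, Mrps17 and Mrps33 were called in 3, Mrpl43, Mrpl28, Mrpl33 and Mrpl50 in 2, and Mrpl49, Mrps6 and Mrps36 in 1.

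The cytosolic ribosome and the respiratory chain, which share with the mitoribosome the tasks of translation and of oxidative phosphorylation, gave other values in the same fit. None of the 76 genes for cytosolic ribosomal proteins was higher and 46 (60.5%) were lower, with a median log2 fold change of -0.32 and a summed level at 78.9% of Rnf40+/+. Of 84 tested nuclear genes for oxidative phosphorylation subunits 35 (41.7%) were higher and 7 (8.33%) lower, with a median of 0.13 and a summed level at 116% of Rnf40+/+. Over all genes tested 23.3% were higher and 24.1% lower. Leaving out 1 library moved the cytosolic median to -0.19 without Rnf40+/+ replicate 3 and its count of lower genes to 28 without Rnf40-/- replicate 2, with 0 higher in each of the 6 fits. Over all genes 18.2% to 22.8% were higher and 19.9% to 23.3% lower in these fits. The oxidative phosphorylation median ran from 0.08 without Rnf40+/+ replicate 1 to 0.22 without Rnf40+/+ replicate 3 in these fits, with 25 to 42 higher and 6 to 10 lower genes. The mitoribosomal medians lay between these groups. The cytosolic genes are also short. With the length trend removed 2 of 75 were higher and 35 lower (median -0.20), and 48 of 83 oxidative phosphorylation genes were higher and 5 lower (median 0.26). In that fit 26.4% of all genes were higher and 25.4% lower. In single libraries, the median of the large subunit against the Rnf40+/+ mean was -0.07, -0.02 and 0.05 in Rnf40+/+ and -0.10, -0.06 and 0.03 in Rnf40-/- MEFs, and that of the small subunit -0.09, -0.01 and 0.10 against -0.04, -0.09 and 0.05. For both subunits the genotypes overlapped. For the cytosolic ribosome they were -0.14, -0.09 and 0.20 against -0.30, -0.48 and -0.21, with all Rnf40-/- libraries lowest. The respiratory chain had -0.11, -0.03 and 0.14 against 0.14, 0.07 and 0.26, and there the genotypes also overlapped.

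**Figure D3:**
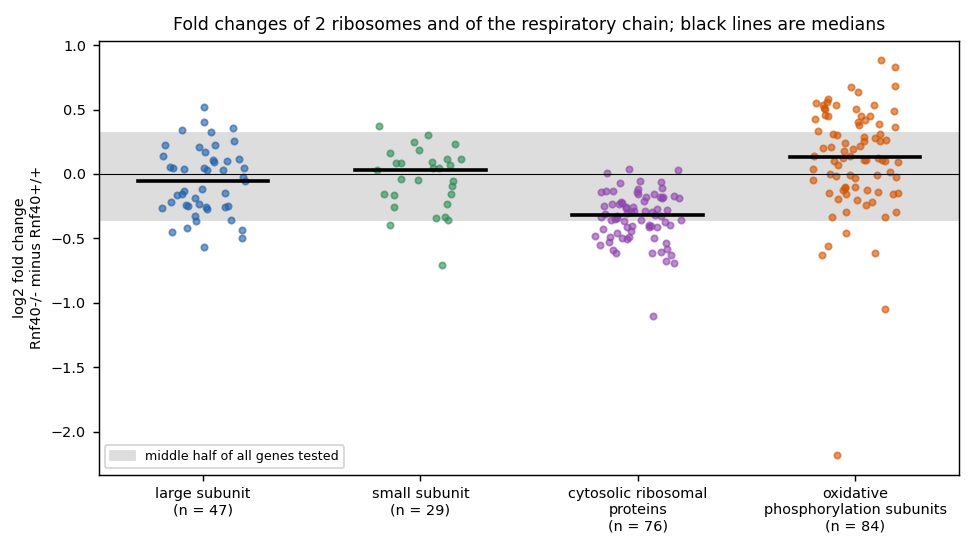
Log2 fold change (Rnf40-/- minus Rnf40+/+, y axis) of every tested gene of the large and small mitoribosomal subunits, of the cytosolic ribosome and of the nuclear oxidative phosphorylation subunits; the grey band runs from -0.35 to 0.32, the quartiles of all genes tested. The mitoribosomal points are spread around 0, with medians of -0.06 and 0.03, and those of the cytosolic ribosome lie mostly below 0.

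**Figure D4:**
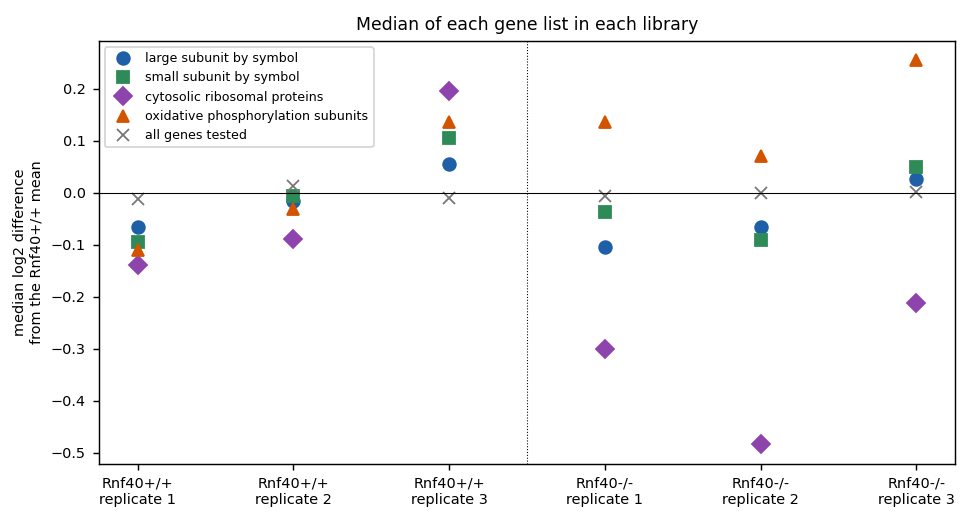
Median log2 difference from the Rnf40+/+ mean (y axis) of each gene list in each of the 6 libraries (x axis). The mitoribosomal medians of the genotypes overlap, and replicate 3 has the highest mitoribosomal medians in both genotypes.

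Few of the genes that build the mitoribosome passed the test. Of 7 mitoribosomal proteins with names outside the pattern, 1 was higher and 1 lower (28.6% called, beside 47.4% of all genes). Dap3, a GTP-binding protein of the small subunit, had 1120.2, 1301 and 1338 in Rnf40+/+ and 1904, 1874 and 2046 in Rnf40-/- MEFs. It rose by 0.63 on the log2 scale (SE 0.08, adjusted p = 4.91e-05), a larger rise than that of any gene taken by symbol. Gadd45gip1, of the large subunit, had 499, 471 and 624 in Rnf40+/+ and 381, 320.4 and 390.0 in Rnf40-/- MEFs and fell by 0.54 on the log2 scale (SE 0.12, adjusted p = 0.00312). Aurkaip1, Chchd1, Ict1, Ptcd3 and Mrp63 did not pass the test. Of 23 tested assembly factors, among them GTPases and enzymes that modify the ribosomal RNA, 1 was higher and 3 lower (17.4% called, median 0.0064). The GTPase gene Gtpbp5 rose by 0.74 (adjusted p = 0.000187), while Rpusd4, Nsun4 and Mett11d1 changed by -0.51, -0.41 and -0.29 on the log2 scale (adjusted p = 0.00463, 0.0214 and 0.0371).

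Over all genes tested 47.4% were called, 23.3% higher and 24.1% lower. Of 14 mitochondrial translation factors 3 were higher and 5 lower (57.1% called, median 0.03). Among the called genes the largest changes were falls of the release factor gene Mtrf1 (-0.57, adjusted p = 0.0234), of the RNA stability factor gene Slirp (-0.54, adjusted p = 0.0229) and of Taco1, an activator of the translation of cytochrome oxidase subunit I (-0.47, adjusted p = 0.0333). Tufm, Mtif2 and Gfm2, which code for elongation, initiation and recycling factors, were the higher ones. Among 17 mitochondrial aminoacyl-tRNA synthetases 2 were higher and 2 lower (23.5% called, median -0.17), and among these the largest changes were in Mars2 (0.51), Aars2 (-0.37) and Hars2 (0.33). Of 21 subunits of the protein import channels 2 were higher and 5 lower (33.3% called, median -0.05), led by Dnajc19 (-1.15), Tomm7 (0.66) and Pam16 (0.63). Of 14 tested regulators of mitochondrial DNA expression and of mitochondrial biogenesis 5 were higher and 0 lower (35.7% called, median 0.02). A further 6 had a negative log2 fold change, down to -0.82, and did not pass the test. Tfam, which packages the mitochondrial DNA and starts its transcription, had 438, 564 and 572 in Rnf40+/+ and 783, 750.4 and 789 in Rnf40-/- MEFs and rose by 0.57 on the log2 scale (SE 0.10, adjusted p = 0.000791). Myc rose by 0.62 on the log2 scale (SE 0.08, adjusted p = 4.72e-05) and Tfb2m rose by 0.39 on the log2 scale (SE 0.09, adjusted p = 0.00278), and Yy1 and Gabpa were also higher.

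Many mitoribosomal genes start close to the start of another gene on the opposite strand. In GENCODE vM1, the annotation of mm9, 28 members had such a start within 1000 bases, and for 25 of them the neighbour was tested and not itself a mitoribosomal gene. In 15 of these pairs the genes run outward from separate starts with bases between them, and in the other 10, Mrpl47 and Mrpl18 among them, their first parts overlap. In these 25 pairs 4 members were higher and 3 lower, and 5 neighbours were higher and 8 lower. Over all genes tested 23.3% were higher and 24.1% lower. Both genes were called in the same direction in 4 pairs and in opposite directions in 1. The neighbour was farther from 0 than the member in 18 of the 25, and the median absolute log2 fold change was 0.15 for the members and 0.24 for the neighbours. Beside this, the quartiles of the log2 fold change over all genes tested were -0.35 and 0.32, so the neighbours were not unusually changed as a group. In the pair of Mrpl51 with Ncapd2, a condensin subunit gene for the folding of mitotic chromosomes, the starts are 206 bases apart. Ncapd2 went from 734 ± 81.6 to 194 ± 27.4, a log2 fold change of -1.92 (adjusted p = 2.77e-07), beside -0.49 for Mrpl51. In the pair of Mrpl47 with the complex I gene Ndufb5 both were higher (0.52 and 0.41), and in that of Mrpl18 with the chaperonin gene Tcp1 both were lower (-0.36 and -0.21). Mrps34 (-0.34, adjusted p = 0.0685) did not pass the test while its neighbour Eme2 rose (0.40, adjusted p = 0.00228), and Mrpl32 rose (0.34) while the proteasome gene Psma2 did not pass the test (0.04, adjusted p = 0.589). Mrpl46 and Mrps11 are each other's neighbours, and neither passed the test (0.26 and 0.08). The following pairs were chosen after their values were seen. Mtbp, Eme1 and Zfp189 were lower, with log2 fold changes of -1.64, -0.98 and -1.04, while their neighbours Mrpl13 and Mrpl27 did not pass the test (-0.15 and 0.11) and Mrpl50 changed by -0.25. Mrpl49 rose by 0.21 and its neighbour Fau, a gene for a cytosolic ribosomal protein, fell by 0.44.

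**Figure D5:**
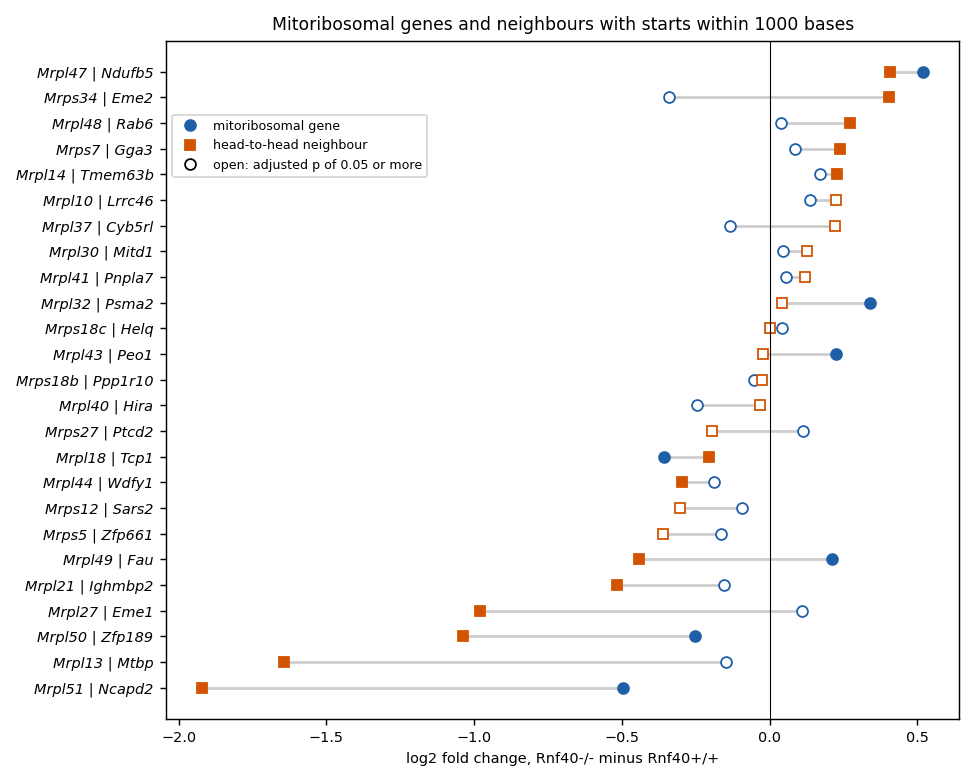
Log2 fold change (Rnf40-/- minus Rnf40+/+, x axis) of each mitoribosomal gene (blue circles) and of the tested neighbour that starts within 1000 bases on the opposite strand (orange squares), 1 pair per line; filled symbols passed the test. The neighbours reach to -1.92, while the members of these pairs stay within 0.52 of 0.

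The bases upstream of 3 members are shown because these genes had the largest fall (Mrps16), a start 206 bases from that of a strongly lower gene (Mrpl51) and the largest rise in the small subunit (Mrps25). They were read from mm9 and end at the base before the annotated start, in the direction of transcription. Capitals mark the letters of the motifs named in the next paragraph, in either direction. The Mrps16 stretch is the minus strand of chr14:21212778-21213027, the Mrpl51 stretch is the plus strand of chr6:125141614-125141818 between the starts of Ncapd2 and Mrpl51, and the Mrps25 stretch is the minus strand of chr6:92134028-92134277.
Mrps16: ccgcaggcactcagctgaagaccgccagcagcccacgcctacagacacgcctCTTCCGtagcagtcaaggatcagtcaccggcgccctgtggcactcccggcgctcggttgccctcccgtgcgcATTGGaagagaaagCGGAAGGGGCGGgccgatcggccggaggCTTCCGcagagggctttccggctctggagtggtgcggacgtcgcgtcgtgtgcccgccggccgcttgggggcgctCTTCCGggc
Mrpl51: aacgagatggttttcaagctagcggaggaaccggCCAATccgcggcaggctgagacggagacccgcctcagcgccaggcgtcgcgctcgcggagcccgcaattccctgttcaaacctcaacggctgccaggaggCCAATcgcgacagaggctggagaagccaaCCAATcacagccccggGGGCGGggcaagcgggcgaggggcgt
Mrps25: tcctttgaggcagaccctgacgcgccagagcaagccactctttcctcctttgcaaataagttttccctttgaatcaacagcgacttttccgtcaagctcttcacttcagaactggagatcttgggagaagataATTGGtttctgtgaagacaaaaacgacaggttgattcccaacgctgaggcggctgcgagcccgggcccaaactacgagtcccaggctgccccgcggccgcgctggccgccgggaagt
The 250 bases of Mrps16 hold the ETS letters at 198, 112, 84 and 9 bases before the start, and at 112 bases they run directly into the SP1 letters. The same stretch holds 1 CCAAT, at 126 bases. The 205 bases between Ncapd2 and Mrpl51 hold CCAAT at 171, 71 and 42 bases and the SP1 letters at 26 bases before the start of Mrpl51. The 250 bases of Mrps25 hold 1 CCAAT, at 117 bases.

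Motifs were searched on both strands in the 250 bases before each start, for all 76 members and for 22233 protein-coding genes. The ETS core CGGAAG, which GABP binds, was found in 27 members (35.5%), against 15.9% of all starts and 21.8% of the starts of tested genes. It was in 14 of 29 small subunit genes (48.3%) and 13 of 47 large subunit genes (27.7%). The NRF1 motif (its palindromic core with 1 free base) was in 8 members (10.5%, against 4.69% of all starts and 6.94% of tested genes) and the YY1 motif AAGATGGC in 4 (5.26%, against 1.61% and 1.81%). The SP1 box GGGCGG was in 34 members (44.7%, against 39.6% and 53.8%) and CCAAT in 28 (36.8%, against 35.0% and 35.4%). The E-box CACGTG was in 4 (5.26%, against 6.51% and 7.92%) and TATAAA in 5 (6.58%, against 12.3% and 7.30%). The median share of G and C in the window was 56.2% for members, 54% for all starts and 58.4% for tested genes. The ETS core stood before 3 of the 12 higher, 7 of the 18 lower and 17 of the 46 other members, and CCAAT before 6, 10 and 12. These are matches of letters and no binding was measured.

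For 5 members the table also holds a row with the same letters in capitals, which the symbol pattern does not take. The row MRPL13 had 408, 486 and 505 in Rnf40+/+ and 618, 554 and 627 in Rnf40-/- MEFs and rose by 0.36 on the log2 scale (SE 0.10, adjusted p = 0.0105), and it held 47.1% of the summed Rnf40+/+ value of both rows. The row Mrpl13 had 449, 588 and 537 in Rnf40+/+ and 485, 452 and 477 in Rnf40-/- MEFs and did not pass the test (-0.15, adjusted p = 0.279). With the rows added the log2 fold change was 0.12 (adjusted p = 0.323), so that the Mrpl13 value depends on which row is read. MRPS11 held 48.8% of the sum with Mrps11, which did not pass the test either alone or summed (0.14, adjusted p = 0.352). MRPL33, MRPL4 and MRPS17 held 7.70%, 6.16% and 6.12% of their sums, and adding them changed no call. With rows added, 12 members were higher (23.3% of all genes tested) and 18 lower (24.2%). What the rows in capitals stand for is not stated in the sources used here.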

How the data were processed

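For what the study calls mRNA sequencing, 6 strand-specific libraries were made from total RNA and sequenced (HiSeq 2000). The authors mapped reads to the mm9 transcriptome and normalized with DESeq, and the submitters' processing notes name Bowtie2 (version 2.1.0) and DESeq (version 1.14.0). How reads were counted per gene is not given in the sources used here. Deposited signal means reads on a gene over the size factor of its library. Reads were recovered by dividing by the smallest step, and 100% of nonzero values came out whole (tolerance 0.01). Any single factor per library gives this result, so it cannot tell whether the factors are those of DESeq, as the design assumed. Libraries within a genotype differed by more than sampling noise (chi-square per gene from 5.33 to 28.8), so none was a duplicate.

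Genes were kept by filterByExpr of edgeR (version 4.0.16) on the recovered reads and tested with limma (version 3.58.1; lmFit, eBayes with trend) on log2(normalized count + 1), with a genotype term alone, and p-values were adjusted by Benjamini-Hochberg across every tested gene, with a threshold of 0.05. Fold changes are on that scale, and the added 1 understates those of low genes. The quasi-likelihood test of edgeR on the recovered reads called 3857 genes higher and 3940 lower. The fit was tested on simulated data before use. Lists are described by counts and medians only. Members and lists were chosen with earlier results of these data known. Named were, per subunit, the 6 largest rises and falls among called genes, the genes Mrps18a, Mrps18b, Mrps18c, Mrps30 and Mrps36, the members of highest and lowest mean, the 3 largest called changes of each further list and the 6 neighbour pairs with the largest change of the member. Exceptions are given as such in the text, and the marker and import lists are shown in part. Alternatives were other scalings (TMM, upper quartile, centring), edgeR, DESeq2 (version 1.42.0), other filters, a replicate block, subunits by structure, pseudocounts of 0.1 and 10 and fits that leave out 1 library. Added after seeing the data were the removal of a length trend (lowess), the fit without replicate 3 of either genotype and the summing of repeated rows. Transcript length was the longest coding transcript of GENCODE vM1, and 83.5% of the genes tested had one. Software was matplotlib (version 3.10.9), scipy (version 1.17.1) and Python (version 3.11.15), and R (version 4.3.3) for the fits. ChIP-seq of the same study was not analysed here.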

Additional observations from a re-analysis of the deposited data

Results flagged for a closer look

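The row MRPL13, spelled in capitals and therefore outside the symbol pattern of the comparisons, held a signal well above the detection limit of 3 reads: its mean normalized count in Rnf40-/- MEFs was 599.7 ± 39.7 (SD, n = 3), against 467 ± 51.4 in Rnf40+/+. The Rnf40-/- libraries all lay above the Rnf40+/+ libraries (adjusted p = 0.0105 by limma). The reason for the separate row was not tested.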

How the results depend on the processing

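By the study's limits (absolute log2 fold change above 1), applied to the limma fit, each of the 6 counts of called genes was 0. With the length trend removed, the lower genes were 9 in all, 6 in the large and 3 in the small subunit, the higher genes of the small subunit were 7, and the medians were 0.0304 (large) and 0.13 (small). Without replicate 3 of either genotype the small subunit had 3 lower genes. With each library left out in turn, higher genes numbered 6 to 14 in all, 4 to 10 in the large and 1 to 4 in the small subunit. Lower genes numbered 12 to 19, 8 to 15 and 4 to 5, beside 18.2% to 22.8% higher and 19.9% to 23.3% lower over all genes in these fits, and the medians ran from -0.11 to -0.0028 (large) and from -0.04 to 0.06 (small). The fewest higher genes came without Rnf40-/- replicate 3 (6), and there were 7 each without Rnf40+/+ replicate 1, Rnf40-/- replicate 1 and Rnf40-/- replicate 2. The fits with 5 libraries hold fewer samples, and otherwise the cause was not tested. The median of the small subunit also changed sign with subunits by structure (-0.0020). It and the other medians moved by less than the SD between replicates (0.06 large, 0.09 small) except where the length trend was removed.

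Deviations of same-numbered libraries correlated at 0.01, 0.02 and 0.02 over genes. With 3 libraries per genotype this cannot tell whether replicate numbers pair the libraries. In both genotypes replicate 3 had higher values for short genes than the other libraries (median log2 difference 0.21 in Rnf40+/+ and 0.11 in Rnf40-/-). With the replicate number as a block the counts were 13 higher and 21 lower (large subunit 9 and 15, small subunit 4 and 6), while 24.6% and 25.6% of all genes were called. DESeq2 gave 10 higher and 16 lower (21.8% and 22.8% of all genes) and edgeR 12 and 17 (23.5% and 24.1%). Depth does not limit these genes. The smallest called change was 0.21 on the log2 scale.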
